A study of Homo sapiens with 6 samples.

Results

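The 10 genes described here, grouped as adherens junction and desmosome genes, encode cadherins and linked proteins of the adhesive contacts of epithelial cells. They were taken as the rows of the deposited table named CDH1, CDH3, CDH17, CTNNA1, CTNND1, JUP, DSG2, DSC2, DSP and PKP2, and all 10 were found among 31016 genes and passed the filter on low counts. Polyadenylated RNA was sequenced from DLD-1, a line of epithelial cells from a human colorectal adenocarcinoma. The group TGFb_TFA (3 libraries) had received both TGF-β and the flavone extract of Abelmoschus manihot known as TFA, and the group TGFb (3 libraries) TGF-β alone. All 6 libraries thus came from TGF-β-treated cells of 1 line, and cells without TGF-β were not analysed here. The labels give treatments of 24, 25 and 26 h for replicates 1, 2 and 3 of each group, while the series text describes 24 h of TGF-β before TFA was added. Doses are not given in the sources used here. Nothing says that the replicates came from separate cultures, so p-values measure only the spread between these libraries, which may be technical. The series title names an effect of TFA on metastasis through STAT3 and the epithelial-mesenchymal transition (EMT), in which loss of cadherin adhesion is a textbook event.

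Adherens junctions join neighbouring cells through classical cadherins, whose cytoplasmic tails bind catenins that connect them to actin. Desmosomes use cadherins of their own, the desmogleins and desmocollins, whose tails bind plakoglobin and plakophilins and, through desmoplakin, the keratin filaments. The intestinal epithelium carries both kinds of junction, and E-cadherin is held to restrain invasion in epithelial tumours. TGF-β is a classical inducer of EMT and of the repressors that bind E-box sequences of cadherin promoters.

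The libraries held 60361756 to 62304157 estimated counts in TGFb_TFA and 62981239 to 68745953 in TGFb. On the first principal component, which held 51.4% of the variance, TGFb_TFA 3 had a score of 48.6, against 14.5 in TGFb 2 and -19.0 to -13.5 in the other 4 libraries. On the second, which held 17.3%, TGFb 1 had a score of 30.4, against -11.6 to 1.14 in the rest. TGFb_TFA 3 also held less RNA of long transcripts. For this, 10459 genes with a mean of at least 1 FPKM (fragments per kilobase, scaled to depth) were split by length into 10 equal-sized classes. CPM are counts scaled to depth and by a TMM factor, which was 0.895 in TGFb_TFA 3 and 0.993 to 1.04 in the other libraries. TGFb_TFA 3 had medians of -0.44 in the longest class and 0.46 in the shortest (log2 CPM minus the mean of the 6 libraries). TGFb 2 shared that direction (-0.17 in the longest class and 0.11 in the shortest), and the other 4 libraries had the opposite one. Of 10 colon epithelial markers 9 were in the table and 6 of them averaged at least 1 FPKM, among them EPCAM (200 FPKM), KRT8, KRT18 and CDX2, while VIL1, LGALS4 and CEACAM5 averaged 0.218 FPKM or less. The epithelial list summed to 1375 to 1551 FPKM in TGFb_TFA and 1488 to 1778 FPKM in TGFb. Fibroblast markers (10 of 10 in the table, none averaging 1 FPKM and none at 0 in all libraries) summed to 0.464 to 2.40 FPKM in TGFb_TFA and 0.063 to 0.373 FPKM in TGFb. Endothelial markers (8 of 8 in the table, EGFL7 alone above 1 FPKM) summed to 2.04 to 2.38 FPKM in TGFb_TFA and 1.55 to 1.99 FPKM in TGFb, and haematopoietic markers (6 of 8) to 0.849 to 1.23 FPKM in TGFb_TFA and 0.881 to 1.09 FPKM in TGFb. Markers of stratified epithelium (4 of 8), mostly KRT10, summed to 3.90 to 4.49 FPKM in TGFb_TFA and 3.31 to 3.75 FPKM in TGFb. The part of these markers and of transcript length in the results was not tested, except where values are given.

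None of the 10 junction genes was called different between TGFb_TFA and TGFb. The test was edgeR's quasi-likelihood test on the estimated counts of 18265 genes, with a call at a Benjamini-Hochberg adjusted p under 0.05, and each of the 10 had an adjusted p of 0.9997. Over all tested genes 2 were called, or 0.0109%, and DESeq2 called 13, or 0.0712%, with 0 of the 10 among them. At an unadjusted p under 0.05 the edgeR test had 334 genes, or 1.83%, and 0 of the 10, whose lowest p was 0.269 (CTNNA1). The levels of the groups overlapped in 10 of 10 junction genes, while they did not overlap in 7.91% of all tested genes. The fitted log2 fold change was below 0 in 8 of 10 with a median of -0.16, and below 0 in 48.1% of all tested genes with a median of 0.011. Without TGFb_TFA 3 it was below 0 in 4 of 10 with a median of 0.033, and the median was -0.074 without TGFb 3. The median was -0.23 without TGFb_TFA 1, -0.23 without TGFb_TFA 2, -0.21 without TGFb 2 and -0.11 without TGFb 1. With TGFb 2 and TGFb_TFA 3 both left out, decided with the data in view, 7 of 10 lay below 0 (median -0.082). In bulk RNA, fewer cells that hold a transcript and less of it per cell cannot be told apart.

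**Figure D1:**
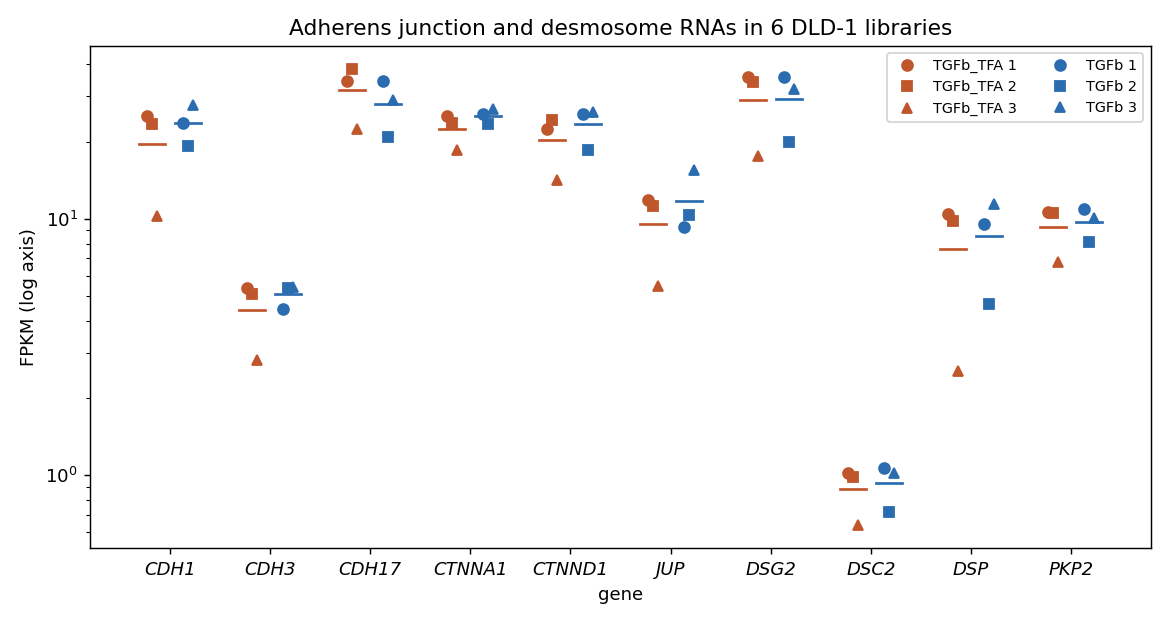
FPKM of the 10 junction genes on a log axis, with TGFb_TFA (orange) left of TGFb (blue), replicates 1, 2 and 3 as circles, squares and triangles and group means as lines. TGFb_TFA 3 is the lowest point for 9 of the 10 genes, and the groups overlap in all 10.

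Levels per transcript length fell into 3 tiers that mixed the 2 kinds of junction. CDH17 (mean of 29.9 FPKM over the 6 libraries), DSG2 (29.2 FPKM), CTNNA1 (23.8 FPKM), CTNND1 (21.8 FPKM) and CDH1 (21.6 FPKM) were the most abundant. Neighbours in this order had overlapping ranges, and each stood above the next in 3 or 4 of the 6 libraries. CDH1 stood above JUP (10.6 FPKM) in 6 of 6 libraries, although the ranges overlapped across libraries. JUP, PKP2 (9.51 FPKM), DSP (8.07 FPKM) and CDH3 (4.74 FPKM) again overlapped from neighbour to neighbour. CDH3 lay above DSC2 (0.907 FPKM) in 6 of 6 libraries with no overlap. Among all tested genes the levels ranged between the percentile 92.5 of CDH17 and the percentile 41.1 of DSC2.

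CDH1 encodes E-cadherin, the classical cadherin of epithelial adherens junctions (ENSG00000039068, chromosome 16, 68737292 to 68835537, plus strand; positions of genes are those of the deposited table, GRCh38). It had 25.2, 23.4 and 10.2 FPKM in TGFb_TFA 1 to 3, against 23.7, 19.2 and 27.7 FPKM in TGFb 1 to 3. TGFb_TFA 1 and 2 lay within the range of the TGFb libraries, and TGFb_TFA 3 lay below all of them. The means were 19.6 ± 8.18 FPKM in TGFb_TFA and 23.5 ± 4.27 FPKM in TGFb (SD, n = 3 each). The fold change fitted by edgeR was -0.26 on the log2 scale (SE 0.28, with a 95% interval of -0.92 to 0.39). The interval reaches from a 1.89-fold lower to a 1.31-fold higher level in TGFb_TFA. Without TGFb_TFA 3 the log2 fold change was 0.0054 (interval -0.35 to 0.36), so the fitted decrease was not seen without that library.

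CDH3 encodes P-cadherin, a close relative of E-cadherin (ENSG00000062038, chromosome 16, 68636189 to 68700292, plus strand), and ends 37000 bases before CDH1 begins. CDH3 had 5.35, 5.08 and 2.81 FPKM in TGFb_TFA, against 4.46, 5.35 and 5.42 FPKM in TGFb. Again TGFb_TFA 3 alone lay below the range of the TGFb libraries. CDH3 had a log2 fold change of -0.19 (SE 0.20, interval of -0.67 to 0.28), and of -0.0047 without TGFb_TFA 3. In TGFb 2, where 8 of the 10 genes lay below their mean over the 6 libraries, CDH3 had its highest level in CPM (36.8 CPM). In FPKM its highest level was in TGFb 3.

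CDH17 encodes LI-cadherin of the intestinal epithelium, whose short cytoplasmic tail does not bind catenins (ENSG00000079112, chromosome 8, 94127162 to 94208555, minus strand). CDH17 had 34.3, 38.4 and 22.5 FPKM in TGFb_TFA, against 34.5, 20.8 and 29.0 FPKM in TGFb. It was the one gene of the 10 with its lowest level in TGFb 2, with TGFb_TFA 3 next and TGFb_TFA 2 highest. Its log2 fold change of 0.19 (SE 0.22; interval -0.31 to 0.70) was the highest of the 10. The value was 0.33 without TGFb_TFA 3, 0.026 without TGFb 2 and 0.49 with TGFb 1 and TGFb_TFA 3 both left out.

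The make-up of cadherin RNA was compared within each library, a measure that does not depend on scaling between libraries. It and the ratios below can still carry the length trend, whose part was not tested. CDH1 and CDH3 fell in length class 7 and CDH17 in class 5, where TGFb_TFA 3 had medians of -0.13 and -0.0017. CDH1 made up 38.8%, 35.0% and 28.8% of the summed FPKM of CDH1, CDH3 and CDH17 in TGFb_TFA 1 to 3, against 37.8%, 42.3% and 44.6% in TGFb 1 to 3. TGFb_TFA 1 lay just above TGFb 1, and the other 2 TGFb_TFA libraries lay below all TGFb libraries. The mean share was 34.2% ± 5.07 in TGFb_TFA and 41.6% ± 3.45 in TGFb (SD, n = 3 each). The difference of -7.38 percentage points had p = 0.2 in a two-sided exact permutation test, in which 3 against 3 libraries cannot go below 0.1, and p = 0.6 after Benjamini-Hochberg adjustment over the 4 within-library measures compared. Without TGFb_TFA 3 the difference was -4.68 percentage points. CDH17 held the largest share in 6 of 6 libraries, between 45.8% in TGFb 2 and 63.3% in TGFb_TFA 3, and CDH3 held 7.59% to 8.25% in TGFb_TFA and 7.11% to 11.8% in TGFb.

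**Figure D2:**
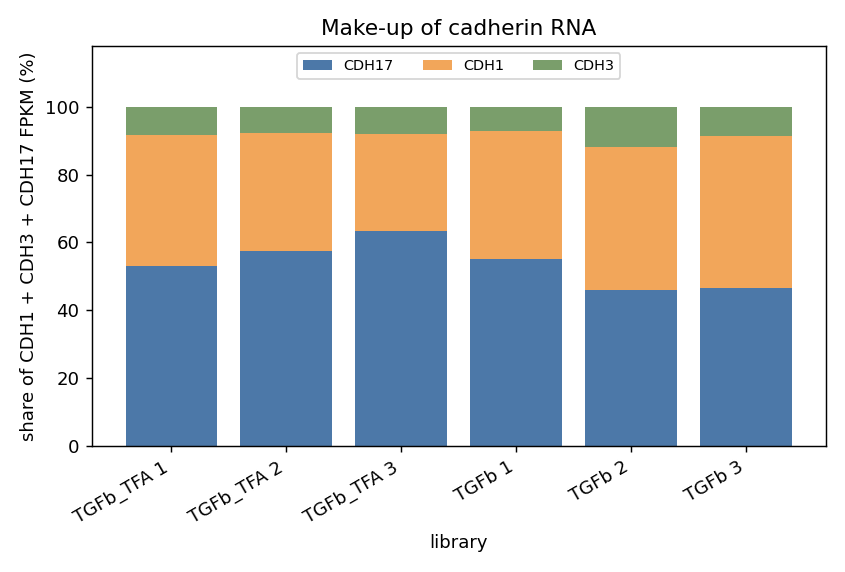
Shares of CDH17, CDH1 and CDH3 in their summed FPKM (stacked bars, percent) in each library, with TGFb_TFA left of TGFb. CDH17 is the largest share in all 6 libraries, and the CDH1 share runs from 28.8% in TGFb_TFA 3 to 44.6% in TGFb 3.

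CTNNA1 encodes α-catenin, which links the cadherin complex to actin (ENSG00000044115, chromosome 5, 138610967 to 138935034, plus strand). It had 25.1, 23.6 and 18.6 FPKM in TGFb_TFA, against 25.5, 23.4 and 26.7 FPKM in TGFb. In FPKM TGFb_TFA 3 alone lay below the TGFb libraries, while in CPM TGFb_TFA 2 (224 CPM) also lay below the lowest of them (234 CPM in TGFb 2). The 6 libraries spanned 1.25-fold in CPM, the narrowest range of the 10. CTNNA1 had a log2 fold change of -0.14 (SE 0.12) with the narrowest interval of the 10 (-0.43 to 0.14), which reaches from a 1.35-fold lower to a 1.10-fold higher level. Across the 21 fits run it lay between -0.21 and -0.081, none of them called.

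CTNND1 encodes p120-catenin, which stabilises classical cadherins at the cell surface (ENSG00000198561, chromosome 11, 57753243 to 57819546, plus strand). It had 22.3, 24.2 and 14.2 FPKM in TGFb_TFA, against 25.7, 18.6 and 26.1 FPKM in TGFb. TGFb_TFA 3 was lowest and TGFb 2 next, and the other 4 libraries lay between 22.3 and 26.1 FPKM. A log2 fold change of -0.20 was fitted for CTNND1 (SE 0.19, interval of -0.64 to 0.25). It was -0.055 without TGFb_TFA 3, and -0.33 without TGFb 2 and -0.32 without TGFb_TFA 2. CTNND1 overlaps ENSG00000288534, a gene on the same strand from 57712582 to 57818431 that also spans TMX2, so that its counts are uncertain. That gene had 8.56, 3.17 and 2.22 FPKM in TGFb_TFA, against 4.99, 3.20 and 7.45 FPKM in TGFb. When the counts of both were summed, which was decided with the data in view, the value was -0.19.

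JUP encodes plakoglobin, a relative of β-catenin found in both adherens junctions and desmosomes (ENSG00000173801, chromosome 17, 41754604 to 41786931, minus strand). It had 11.8, 11.2 and 5.48 FPKM in TGFb_TFA, against 9.32, 10.4 and 15.5 FPKM in TGFb. TGFb_TFA 3 was the lowest library and TGFb 3 the highest, and the other 4 lay between 9.32 and 11.8 FPKM. Its log2 fold change of -0.30 (SE 0.28; interval -0.94 to 0.35) was the lowest of the 10. The value was -0.067 without TGFb_TFA 3 and -0.089 without TGFb 3, and lay between -0.46 and -0.37 when 1 of the other 4 libraries was left out.

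CTNNB1, which encodes β-catenin itself, had 49.2, 48.2 and 40.8 FPKM in TGFb_TFA, against 49.8, 42.4 and 47.3 FPKM in TGFb. Its fitted value was 0.014 in log2 units (SE 0.12, interval of -0.26 to 0.28). The log2 ratio of JUP to CTNNB1 within a library was -2.06, -2.10 and -2.90 in TGFb_TFA, against -2.42, -2.04 and -1.61 in TGFb, with overlapping groups. The difference of -0.33 had p = 0.4 (two-sided exact permutation test, 3 libraries a group; 0.6 adjusted). It was -0.059 without TGFb_TFA 3, -0.13 without TGFb 3 and -0.53 without TGFb 1.

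DSG2 encodes desmoglein 2, the desmoglein of simple epithelia (ENSG00000046604, chromosome 18, 31498177 to 31549008, plus strand). It had 35.7, 34.1 and 17.6 FPKM in TGFb_TFA, against 35.8, 19.8 and 32.2 FPKM in TGFb. Each group held 1 low library, TGFb_TFA 3 and TGFb 2, and the other 4 lay between 32.2 and 35.8 FPKM. For DSG2 a log2 fold change of 0.00094 was fitted (SE 0.27, interval of -0.64 to 0.64). With both low libraries left out, which was decided with the data in view, the value came to 0.0075 with an interval of -0.19 to 0.20.

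DSC2 encodes desmocollin 2, the partner cadherin of the desmosome (ENSG00000134755, chromosome 18, 31058840 to 31102421, minus strand). It had 1.02, 0.986 and 0.637 FPKM in TGFb_TFA, against 1.07, 0.719 and 1.02 FPKM in TGFb. The same 2 libraries were low, at a level far below that of DSG2. DSC2 had a log2 fold change of -0.067 (SE 0.20, interval of -0.53 to 0.39), and of 0.060 without TGFb_TFA 3 and 0.034 without TGFb 1. The log2 ratio of DSG2 to DSC2 was 5.13, 5.11 and 4.78 in TGFb_TFA, against 5.07, 4.79 and 4.98 in TGFb. The means were 5.01 ± 0.19 in TGFb_TFA and 4.95 ± 0.15 in TGFb (SD, n = 3 each), a difference of 0.062 with p = 0.6 (two-sided exact permutation test). That difference was smaller than either SD, and ranged from -0.019 without TGFb 2 to 0.17 without TGFb_TFA 3.

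DSP encodes desmoplakin, which ties the desmosome to keratin filaments (ENSG00000096696, chromosome 6, 7541617 to 7586714, plus strand). It had 10.4, 9.82 and 2.56 FPKM in TGFb_TFA, against 9.54, 4.66 and 11.4 FPKM in TGFb. TGFb_TFA 3 was lowest and TGFb 2 next, and the other 4 libraries lay between 9.54 and 11.4 FPKM. DSP varied most of the 10, spanning 3.89-fold in CPM over the 6 libraries and 2.38-fold within TGFb alone. Its log2 fold change of -0.18 had the widest interval of the 10 (SE 0.48; -1.31 to 0.95), from a 2.47-fold lower to a 1.93-fold higher level. The value was 0.21 without TGFb_TFA 3, 0.044 without TGFb 3 and -0.47 without TGFb 2.

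PKP2 encodes plakophilin 2, which connects desmosomal cadherins with desmoplakin (ENSG00000057294, chromosome 12, 32790755 to 32896777, minus strand). It had 10.6, 10.5 and 6.77 FPKM in TGFb_TFA, against 10.9, 8.14 and 10.1 FPKM in TGFb. TGFb_TFA 3 and TGFb 2 were again the lowest libraries, and the other 4 lay close together. PKP2 had a log2 fold change of -0.045 (SE 0.17, interval of -0.44 to 0.35), and of 0.081 without TGFb_TFA 3 and 0.042 without TGFb 1.

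The balance of the 2 junction types was taken as the log2 ratio of the summed FPKM of DSG2, DSC2, DSP and PKP2 to that of CDH1, CDH3, CTNNA1 and CTNND1. It was -0.43, -0.46 and -0.73 in TGFb_TFA, against -0.47, -0.995 and -0.65 in TGFb. TGFb 2 held the lowest balance and the groups overlapped. The means were -0.54 ± 0.17 in TGFb_TFA and -0.70 ± 0.27 in TGFb (SD, n = 3 each), a difference of 0.16 with p = 0.5 (two-sided exact permutation test). The difference was 0.017 without TGFb 2, 0.26 without TGFb_TFA 3, 0.28 without TGFb 1 and 0.11 without TGFb_TFA 1.

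**Figure D3:**
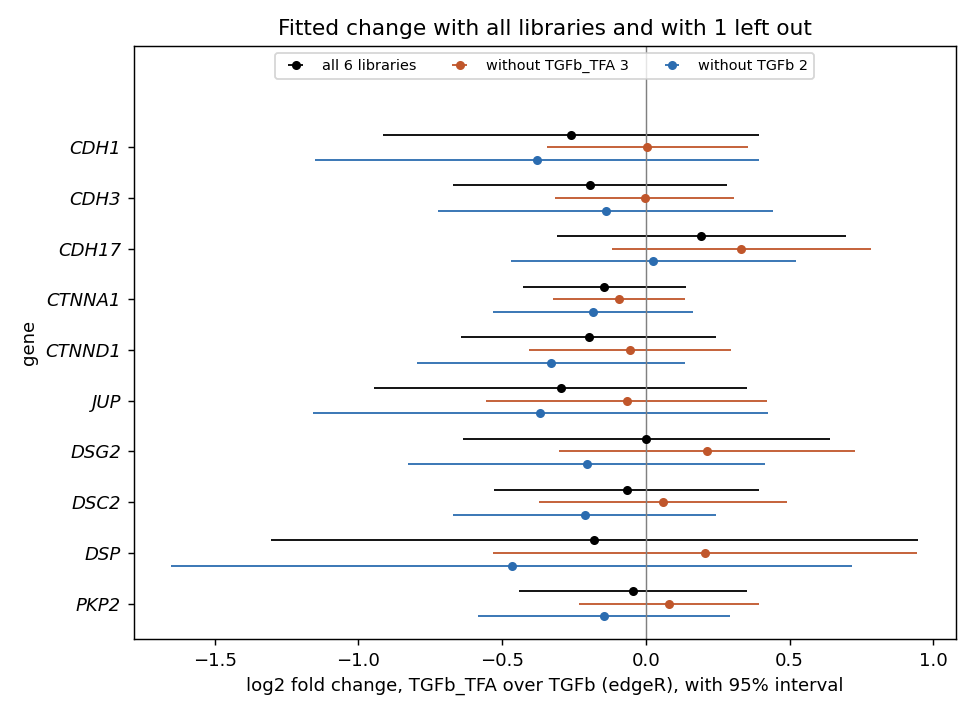
Fitted log2 fold change of TGFb_TFA over TGFb with its 95% interval (edgeR) for each gene, with all 6 libraries (black), without TGFb_TFA 3 (orange) and without TGFb 2 (blue). All intervals drawn hold 0, and the value of each of the 10 genes is higher without TGFb_TFA 3.

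The RefSeq promoter table (GRCh38.p14, 250 bases before to 50 after a start) held 5 of the 10 genes, CTNNA1, DSP, JUP, DSC2 and DSG2. The promoters of DSP and JUP, the 2 genes with the widest range over the libraries, are shown with that of DSG2, the gene with the fitted value nearest 0. Capitals mark CAGGTG, the E-box bound by EMT repressors of the Snail and ZEB families, and GGGCGG, the GC box bound by Sp1-type factors, each read on either strand (CACCTG and CCGCCC on the printed strand). The DSP window is chr6:7541421-7541720 (plus strand), the JUP window chr17:41786662-41786961 (minus strand) and the DSG2 window chr18:31497927-31498226 (plus strand), all printed 5′ to 3′.
DSP: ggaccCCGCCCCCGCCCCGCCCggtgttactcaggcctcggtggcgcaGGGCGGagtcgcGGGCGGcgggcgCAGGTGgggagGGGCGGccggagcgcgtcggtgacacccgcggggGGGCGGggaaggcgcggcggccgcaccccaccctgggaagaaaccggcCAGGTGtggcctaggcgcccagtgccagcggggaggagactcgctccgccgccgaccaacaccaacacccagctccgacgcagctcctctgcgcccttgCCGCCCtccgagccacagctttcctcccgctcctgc
JUP: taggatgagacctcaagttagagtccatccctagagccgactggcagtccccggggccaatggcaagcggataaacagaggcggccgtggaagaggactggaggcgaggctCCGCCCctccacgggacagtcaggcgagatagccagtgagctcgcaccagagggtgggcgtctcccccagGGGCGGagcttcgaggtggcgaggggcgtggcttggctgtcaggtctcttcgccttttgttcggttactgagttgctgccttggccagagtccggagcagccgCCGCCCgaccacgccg
DSG2: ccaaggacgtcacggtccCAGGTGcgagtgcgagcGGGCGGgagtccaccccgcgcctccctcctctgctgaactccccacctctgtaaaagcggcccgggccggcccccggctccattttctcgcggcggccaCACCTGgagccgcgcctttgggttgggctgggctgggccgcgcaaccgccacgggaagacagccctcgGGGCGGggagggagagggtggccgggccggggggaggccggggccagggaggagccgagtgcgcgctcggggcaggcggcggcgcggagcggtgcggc

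The DSP window held 2 E-boxes and 8 GC boxes (overlapping matches counted), the JUP window 0 E-boxes and 3 GC boxes, and the DSG2 window 2 of each. A second JUP window, at chr17:41785927-41786226, held 2 E-boxes and no GC box. Of 35097 windows of this length in the table, 20.6% held the E-box and 44.9% the GC box. A match is a description of these letters, and binding was not measured.

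The pattern that most of the 10 shared lay between libraries. TGFb_TFA 3 was the lowest library in 9 of 10, compared with 30.1% of all tested genes and 34.4% of those with a mean of at least 1 FPKM. TGFb_TFA 3 and TGFb 2 were the 2 lowest libraries in 7 of 10, compared with 21.4% of all tested genes, and the exceptions were CDH3, CTNNA1 and JUP. The median deviation of the 10 (log2 CPM minus the mean of the 6 libraries) was 0.16, 0.11 and -0.47 in TGFb_TFA 1 to 3, against 0.21, -0.19 and 0.18 in TGFb 1 to 3. The median over all 10459 genes lay between -0.0072 and 0.023 in each library. All 10 lay below their mean in TGFb_TFA 3, from -1.31 (DSP) to -0.18 (CTNNA1), and 8 of 10 in TGFb 2.

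**Figure D4:**
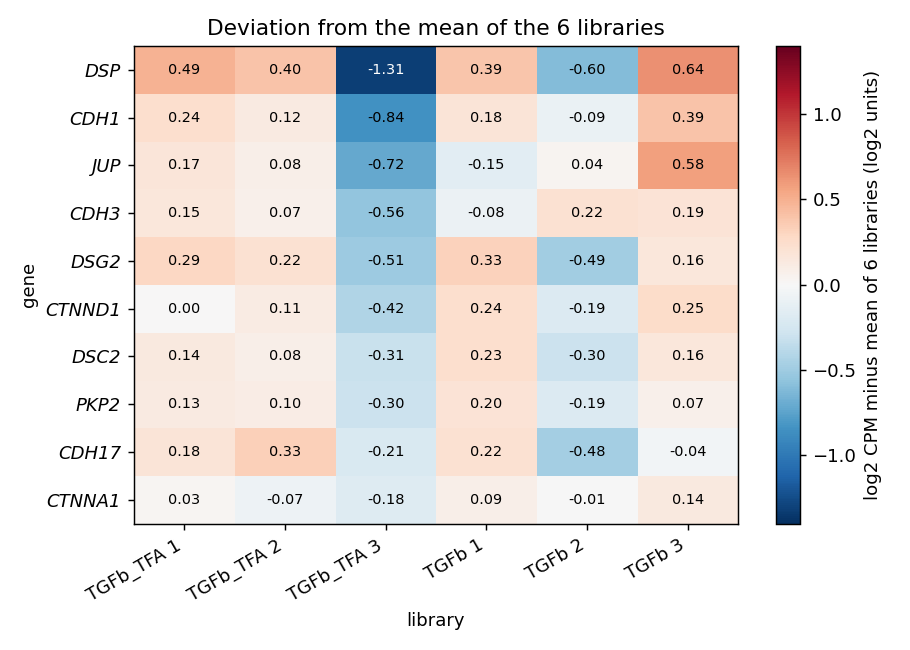
Deviation of each gene (rows) in each library (columns) from its mean over the 6 libraries, in log2 CPM, from blue (below) to red (above), with the rows ordered by TGFb_TFA 3. The column of TGFb_TFA 3 is below 0 for all 10 genes, and that of TGFb 2 for 8 of 10.

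The 10 lay in length classes 5 to 10 (the longest), where the medians of TGFb_TFA 3 ran from -0.0017 to -0.44. CDH1, CDH3 and DSG2 were in class 7 (median -0.13) and JUP in class 6 (median -0.077). The part of length in the low levels of TGFb_TFA 3 was not tested. Placed by effective length in the classes formed from genes with a mean of at least 1 FPKM (DSC2, at 0.907 FPKM, by the same class limits), DSP and DSC2 fell in the longest of the 10 classes, CTNNA1 and CTNND1 in the next and CDH17, the shortest, in the fifth. In the longest 3 classes, TGFb_TFA 3 was the lowest library for 60.2% of genes. These classes hold only 5 of the 10, CTNNA1, CTNND1, DSC2, DSP and PKP2, so that share is no match for the 9 of 10 above. Compared with genes of their own length class in TGFb_TFA 3, 8 of 10 lay below the class median. JUP lay 0.65 log2 units below it (-0.72, against a class median of -0.077), with 2.49% of genes in its class lower. CDH1 was at -0.84, against -0.13, with 2.58% of genes lower. DSP was at -1.31, against -0.44, with 4.59% of genes lower. CTNNA1 (-0.18, against -0.27) and DSC2 (-0.31, against -0.44) lay above the median of their length. In TGFb 2, 7 of 10 lay below the median of their length. These deviations describe 1 library each and have no replicate check.

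**Figure D5:**
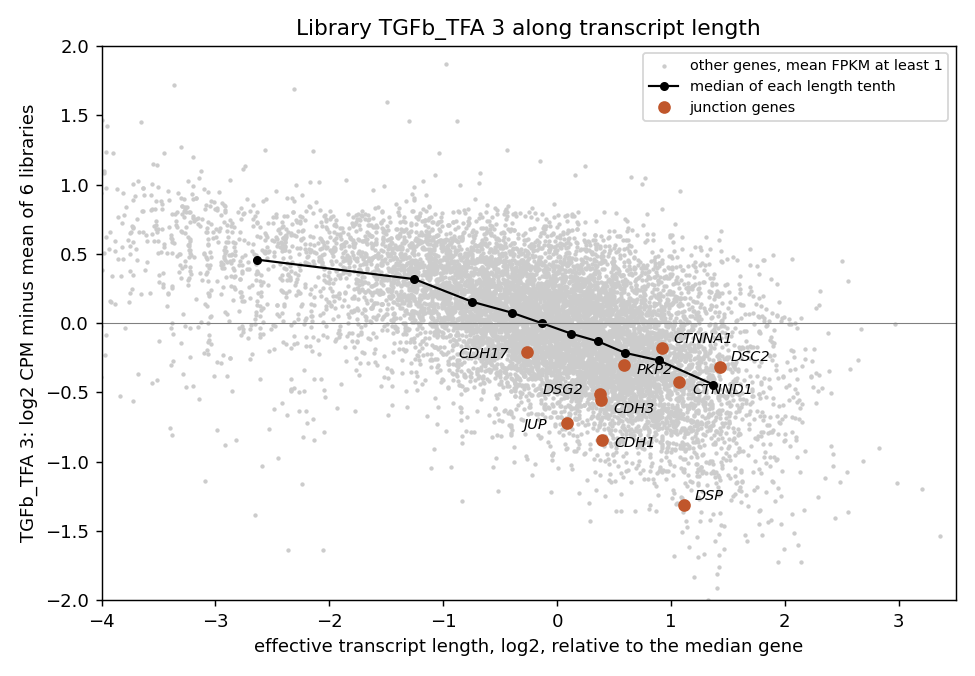
Deviation of TGFb_TFA 3 from the mean of the 6 libraries (log2 CPM) along effective transcript length (log2, relative to the median gene), for the 10 junction genes (orange) and other genes with a mean of at least 1 FPKM (grey), with the median of each length class (black). CDH1, JUP and DSP lie well below the line and CTNNA1 and DSC2 above it; 132 genes lie beyond the axes.

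When offsets took out the length trend of every library, the median log2 fold change of the 10 was -0.11, with 7 of 10 below 0 and none called. CDH1 was at -0.25 (interval -0.77 to 0.27), JUP at -0.29 (-0.87 to 0.29) and DSP at -0.16 (-0.99 to 0.68) in that fit, and DSC2 at 0.026. When TGFb 2 and TGFb_TFA 3 were both dropped, again with the data in view, CDH1 was at -0.11 (-0.33 to 0.11), DSP at -0.080 (-0.32 to 0.16) and PKP2 at -0.019 (-0.20 to 0.17). CDH17 was at 0.17 (-0.10 to 0.43) and JUP at -0.13 (-0.67 to 0.40). The interval of CTNND1 (-0.18, interval -0.35 to -0.015) did not hold 0, and its adjusted p over all genes was 0.9999 in edgeR's test. The 2 libraries were dropped because these genes were low in them, so the narrower spread follows from that choice. The lowest unadjusted p of any of the 10 over the 21 fits (edgeR, DESeq2 or limma) was 0.021, for CDH17. In the main fit with all 6 libraries CDH17 had an unadjusted p of 0.40 in edgeR's test. Its log2 fold change lay between 0.026 and 0.49 over these fits. The lowest adjusted p of any of the 10 over the 21 fits was 0.887.

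Other genes of these junctions gave the same count of calls. Of 55 listed, 54 were in the table and 47 were tested; 0 were called and 0 had an unadjusted p under 0.05 in edgeR's test, and DESeq2 called 0. The log2 fold change was below 0 in 32 and above 0 in 15, with a median of -0.076, against 0.011 over all tested genes. Among nectins and actin linkers 12 of 15 lay below 0 (median -0.24), and among genes of junction turnover 11 of 15 (median -0.063). Among other catenins, plakophilins and plakins 6 of 12 lay below 0 (median 0.00015), and among other cadherins 3 of 5 (median -0.082). TGFb_TFA 3 was the lowest library in 26 of the 47.

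VCL encodes vinculin, which α-catenin recruits to actin under tension. It had 18.2, 15.1 and 8.71 FPKM in TGFb_TFA, against 18.6, 17.2 and 19.6 FPKM in TGFb, with TGFb_TFA 2 and 3 below all TGFb libraries. Its log2 fold change of -0.40 (SE 0.21; interval -0.88 to 0.093) was the lowest among listed genes with a mean of at least 1 FPKM and was not called. CGN, which encodes the tight junction protein cingulin, followed at -0.38 and PPL, which encodes the desmosomal plakin periplakin, at -0.37, both lowest in TGFb_TFA 3. Without TGFb_TFA 3 the values were -0.20 for VCL, -0.21 for CGN and -0.10 for PPL. At the other end stood NECTIN3, a nectin, at 0.15, the GTPase CDC42 at 0.14 and AJUBA, a LIM protein that binds α-catenin, at 0.054. CDC42 had its highest level in TGFb_TFA 3 (32.9 FPKM, against 24.6 to 27.8 FPKM in TGFb), and its log2 fold change was -0.083 without that library.

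The most abundant were PERP, a desmosomal membrane protein (1066 ± 27.6 FPKM in TGFb_TFA and 1126 ± 31.1 FPKM in TGFb; log2 fold change -0.046), RHOA (177 ± 4.20 FPKM in TGFb_TFA and 188 ± 7.16 FPKM in TGFb; -0.054), CTNNAL1 (52.2 ± 6.78 FPKM in TGFb_TFA and 54.5 ± 2.86 FPKM in TGFb; -0.039) and CTNNB1 (SD, n = 3 each). The groups did not overlap on the CPM scale in 4 of the 47 genes, where 7.91% of all tested genes did not. These were CDH11 and AJUBA (higher in TGFb_TFA) and NECTIN4 and PTPN1 (lower in TGFb_TFA), of which CDH11, NECTIN4 and PTPN1 are named here after their values were seen. In CPM the lowest TGFb_TFA library and the highest TGFb library of AJUBA were both at 104 CPM when rounded. In FPKM the groups of AJUBA overlapped, with 17.3, 16.5 and 14.2 FPKM in TGFb_TFA, against 15.4, 15.6 and 16.1 FPKM in TGFb, and so did those of PTPN1. PERP overlapped in CPM but not in FPKM, with at most 1086 FPKM in TGFb_TFA and at least 1094 FPKM in TGFb. CDH11, a mesenchymal cadherin, had 0.0897, 0.0668 and 0.0343 FPKM in TGFb_TFA, against 0, 0.0189 and 0.0251 FPKM in TGFb. The summed fibroblast markers were likewise higher in every TGFb_TFA library than in any TGFb library, and their part in this was not tested.

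Across all genes with a mean of at least 5 FPKM, the profile over the 6 libraries most like the mean profile of the 10 was that of SUPT6H (Pearson's r = 0.999), a transcription elongation factor. IPO9 and RANBP9 (r = 0.998 each) and NPEPPS (r = 0.997) were also among the most alike of 5581 candidates. IPO9 had 7.98, 7.65 and 4.96 FPKM in TGFb_TFA, against 7.66, 6.35 and 8.21 FPKM in TGFb. These 4 genes were lowest in TGFb_TFA 3 and next lowest in TGFb 2. The points are the same 6 libraries for every gene, so the coefficients describe that shared order and carry no test.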

How the data were processed

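Polyadenylated RNA of 6 DLD-1 libraries (2 groups of 3) was sequenced as read pairs, per the labels' protocols. Per the submitters' processing notes, the build was GRCh38 and the tools included StringTie 1.3.4d, HISAT2 2.0.4 and cutadapt 1.9. The annotation release and the handling of strand and molecular identifiers are not given in the sources used here. For each gene, the deposited table holds the authors' estimated counts and FPKM. The estimated counts were whole numbers and were used without rounding.

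Counts were filtered (filterByExpr), scaled (TMM) and tested with edgeR 4.0.16 (R 4.3.3) on all tested genes, group as the single term, with Benjamini-Hochberg adjustment and a threshold of 0.05. Intervals are 95% intervals of the fit. Alternatives used DESeq2 1.42.0, limma 3.58.1 on log2(FPKM + 0.5), other filters, offsets for transcript length, a replicate block and left-out libraries. Where 1 group kept 1 library fewer, the spread was pooled over the rest. Effective length was taken as the count over FPKM. Within-library ratios of FPKM were compared by exact permutation. The fit was tested on simulated counts with 200 changed genes, drawn without a length trend. It called 3.0% of 1.5-fold changes, 59.5% of 2-fold changes and 97.0% of 4-fold changes. Tables were handled in Python 3.11.15.

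Named genes were the 10 junction genes; of the other junction genes the 4 most abundant and the 3 highest and 3 lowest log2 fold changes with a mean of at least 1 FPKM; the 5 genes most like the 10 in profile, of which 1 is not reported here; and CTNNB1. The members and lists were chosen with earlier results of these data known.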

Additional observations from a re-analysis of the deposited data

How the results depend on the processing

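The count of junction genes called was 0 under all alternatives, as was that of the other junction genes. The count of all genes called, 2 as reported, was 13 with DESeq2's Wald test, 1 with the replicate block and 1 with length offsets and the replicate block, and 1 to 3 with 1 library left out. The count of junction genes fitted below 0, 8 as reported, was 4 with TGFb 1 and TGFb_TFA 3 left out and 4 to 9 with 1 library left out. The DSG2 to DSC2 ratio differed by 0.24 with TGFb 1 and TGFb_TFA 3 left out.

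Signs of the fitted values of single genes turned as follows, and the cause was not tested. With TGFb 1 and TGFb_TFA 3 left out, the log2 fold change was 0.0016 for CTNND1, 0.15 for DSC2, 0.28 for DSP, 0.16 for PKP2, 0.018 for CTNNAL1 and -0.11 for CDC42. Leaving out TGFb 2 together with TGFb_TFA 3, an alternative added after seeing the data, gave 0.051 for CDH3, -0.025 for CTNNB1 and -0.020 for CDC42. DSG2 was at -0.0013 with DESeq2 size factors and with DESeq2, -0.0047 without a filter, -0.0046 at a mean of at least 5 FPKM, -0.031, -0.032 and -0.030 with limma at pseudocounts of 0.5, 0.1 and 1, and -0.0012 with the replicate block. CTNNB1 was at -0.0016 at a mean of at least 5 FPKM and -0.015 with limma. DSC2 was at 0.026 with length offsets and 0.028 with the block added. With 1 library left out, the range was -0.46 to 0.0054 for CDH1, -0.21 to 0.21 for DSG2, -0.21 to 0.060 for DSC2, -0.47 to 0.21 for DSP, -0.15 to 0.081 for PKP2, -0.035 to 0.057 for CTNNB1 and -0.083 to 0.23 for CDC42.

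The labels name no block, so the replicate numbers were not used as pairs in the main fit, although the labelled hours follow them. Deviations of same-numbered libraries from their group means correlated at 0.20, -0.54 and -0.52. With TGFb_TFA 3 and TGFb 2 lying apart from the rest of their groups, these values cannot decide whether replicates were paired. TGFb_TFA 3 correlated best with TGFb 2 (0.65). With the replicate block the median of the 10 was -0.17. DSC2 had no value with limma or at a mean of at least 5 FPKM, and CDH3 none at that filter. The intervals beside each gene give the differences that these 6 libraries leave in range.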
